A study of Homo sapiens with 402 samples.

Results

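Libraries of MCF10A cells exposed to a dichlorobenzene, labelled DCB_14, or to a dichlorophenol, labelled DCP_25, were examined. MCF10A cells are human breast epithelial cells that grow as an established line and form no tumours, labelled wild type in every library used here. Members were chosen by the chemical in their label: 16 DCB_14 and 16 DCP_25 libraries, 32 of the 402 libraries of the series, with 4 at each of 0.025, 0.25, 2.5 and 25 µM. They were compared with the 15 DMSO controls of the same plate, DMSO being the labelled solvent of both chemicals. Cells were exposed in wells of a multi-well plate for 48 h, and the labels' protocol counts the 4 libraries of a dose as biological replicates. The p-values therefore measure the spread between wells of that line. The same plate carried PCB153, PCB187 and Thiram at the same 4 doses, and all 95 of its libraries entered 1 fit.

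Dichlorobenzenes are volatile chlorinated aromatic compounds used in moth repellents and toilet deodorizers. In the body they are oxidized, mainly in liver and largely by the cytochrome P450 enzyme CYP2E1, to dichlorophenols. These carry a hydroxyl group on the ring, through which sulfotransferases (SULT genes) and glucuronosyltransferases (UGT genes) attach sulfate or glucuronate before excretion in urine. The labels spell out neither compound, and the structural difference used below is the hydroxyl group alone. Chlorinated aromatic compounds of other shapes are known as ligands of the aryl hydrocarbon receptor (AhR), which switches on CYP1A1, CYP1B1 and AHRR, and reactive quinones made from phenols are known to activate NRF2, the regulator of NQO1, HMOX1 and GCLM.

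The libraries of the plate were split into a first and a second set by the number in their label. The first set held dosed libraries numbered 1 and 2 and controls 49 to 56. The second set held dosed libraries 3 and 4 and controls 57 to 64 without 62. The labels do not say what the numbers stand for, so this match of controls with dosed libraries was assumed. Controls of the second set were shallow, at 2.31 to 4.73 M (mega) counts against 15.1 to 22.5 M in the first set, while DCB_14 libraries held 11.3 to 20.7 M and DCP_25 libraries 8.96 to 17.6 M. Averaged over all groups of the plate, 4432 of 21307 genes (20.8%) differed between the sets at an adjusted p under 0.05. The set was a term of the main fit, the same for controls and dosed libraries. Across 7502 well-expressed genes, the set difference of controls had a Pearson correlation of 0.46 with that of DCB_14 and 0.45 with that of DCP_25. Markers of breast epithelium were present. Basal markers (KRT5, KRT17, EGFR and others) summed to 1981 to 2968 CPM (counts per 1e+06 counts of the TMM-scaled library) in controls, 1919 to 2718 in DCB_14 and 2027 to 3074 in DCP_25 libraries. Luminal markers, KRT8 and KRT18 among them, summed to 4332 to 5342, 4884 to 5583 and 4599 to 5931 CPM. Leukocyte markers summed to 18.7 to 58.4 CPM in controls, 15.3 to 53.4 in DCB_14 and 16.2 to 54.7 in DCP_25 libraries, with PTPRC and CD3E at 0 in all 47. Fibroblast markers summed to 29.4 to 78.7, 24.9 to 74.2 and 32.1 to 87.3 CPM, with COL1A2 at 0 in all 47. Endothelial markers reached at most 9.40 CPM, with VWF and CDH5 at 0 in all 47, and the luminal marker KRT19 was at 0 in all DCB_14 and DCP_25 libraries. Myoepithelial markers summed to 1.73 to 33.6, 12.2 to 27.2 and 12.3 to 27.8 CPM, with CNN1 at 0 in all 47. The part of such cells in the results was not tested. Fewer cells of a kind and less RNA per cell cannot be told apart in such libraries.

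Few genes passed the adjusted test with either chemical. A gene was called at a Benjamini-Hochberg adjusted p under 0.05 in edgeR's quasi-likelihood test over 21307 genes. DCB_14 called 2 genes at 0.025 µM (0.00939% of genes tested), 1 at 0.25 µM (0.00469%), 1 at 2.5 µM (0.00469%) and 6 at 25 µM (0.0282%). DCP_25 called 0 genes at 0.025 µM (0%), 1 at 0.25 µM (0.00469%), 1 at 2.5 µM (0.00469%) and 0 at 25 µM (0%). With the 4 doses averaged, DCB_14 called 7 genes (0.0329%; 1 higher and 6 lower) and DCP_25 called 3 (0.0141%; 1 higher and 2 lower). Neither chemical called a gene in the linear trend over the doses (0% each): before adjustment, edgeR put 999 (4.69%) and 872 genes (4.09%) under p = 0.05 for DCB_14 and DCP_25, DESeq2 called 0 for both, and the smallest adjusted p was 0.279 and 0.42. For the doses of DCP_25 without a call, 774 genes at 0.025 µM and 1010 at 25 µM were under that p in edgeR, and DESeq2 called 0 at both. The share of genes under an unadjusted p of 0.05 was 4.54%, 4.28%, 7.22% and 6.66% from the lowest to the highest dose of DCB_14 and 8.09% for its mean. It was 3.63%, 4.35%, 3.99% and 4.74% for DCP_25 and 5.21% for its mean. Every comparison with controls shares the same 15 control libraries, and the counts depended on them. In the first and second set alone the DCB_14 mean called 123 (0.555%) and 47 genes (0.214%). The DCP_25 mean called 2 (0.00902%) and 116 (0.527%). Without the 7 shallow controls, DCB_14 had more calls at 2.5 and 25 µM and in its mean, and fewer at its lower doses (closing section). On the same plate Thiram at 25 µM called 5579 genes (26.2%).

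GNAS was the gene called higher with both chemicals. It encodes the stimulatory G protein alpha subunit, which couples hormone receptors to adenylyl cyclase and cyclic AMP, and lies on chromosome 20 (GRCh38, chr20:58839718-58911192, plus strand, GENCODE v29). In replicate order 1 to 4, GNAS stood at 471, 458, 452 and 462 CPM with DCB_14 at 0.025 µM, and at 497, 451, 474 and 456 CPM at 0.25 µM. It stood at 480, 475, 503.6 and 482 CPM at 2.5 µM, and at 447, 444, 446 and 451 CPM at 25 µM. These 16 values lay close together, at 466 ± 18.4 CPM (SD, n = 16). With DCP_25, GNAS stood at 512, 446, 419 and 412 CPM at 0.025 µM, and at 497, 451, 501 and 455 CPM at 0.25 µM. It stood at 517, 481, 517 and 538 CPM at 2.5 µM, and at 374, 462, 422 and 485 CPM at 25 µM, for 468 ± 45.8 CPM (SD, n = 16) over the doses. Controls spread more widely and lower, from 210 through a median of 326 to 468 CPM. They averaged 368 ± 80.8 CPM (SD, n = 8) in the first set and 286 ± 47.2 CPM (SD, n = 7) in the second. All 32 dosed libraries lay above the control median for GNAS, and 7 DCB_14 and 8 DCP_25 libraries lay above every control, among them all 4 of each chemical at 2.5 µM.

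**Figure D1:**
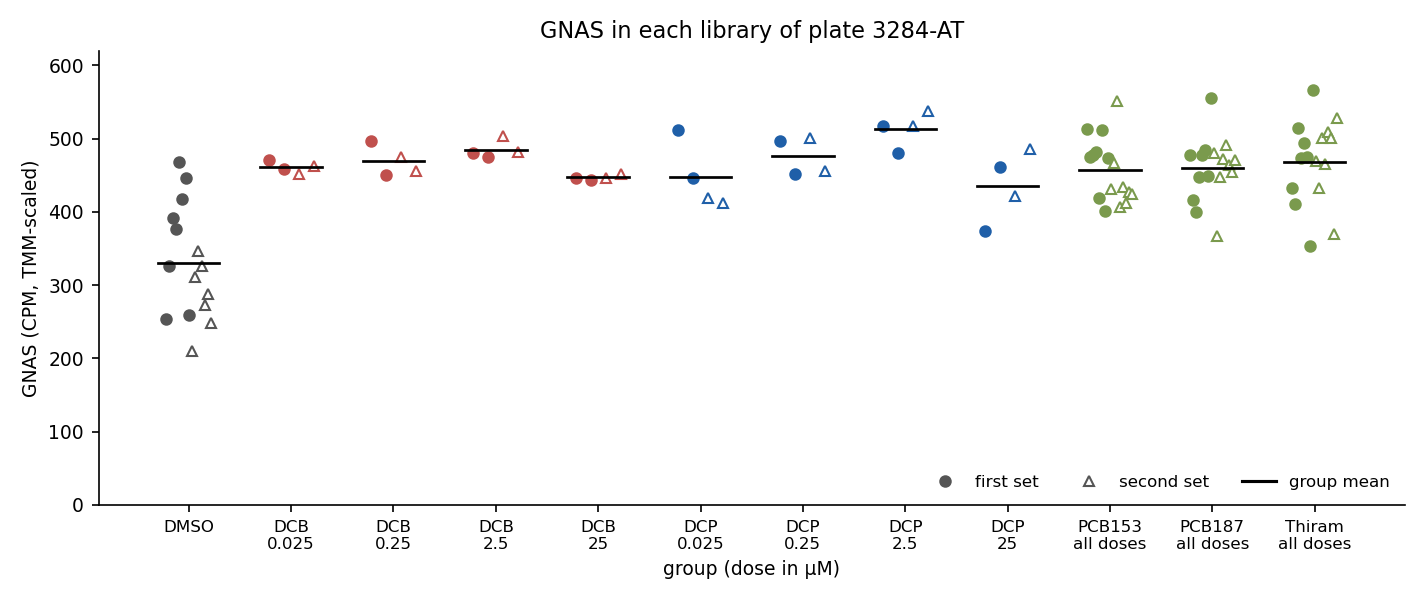
GNAS level in CPM (vertical axis) in every library of the plate, by chemical and dose in µM, with filled circles for the first set, open triangles for the second and bars at group means. The DCB_14 and DCP_25 libraries sit between 374 and 538 CPM, above the control median of 326 CPM, with no rise from 0.025 to 25 µM.

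The mean over doses of GNAS was 0.46 ± 0.06 (SE) log2 units above controls for DCB_14, a fold of 1.38 with an adjusted p of 1.8e-08. For DCP_25 it was 0.47 ± 0.06 log2 units above, again a fold of 1.38, with an adjusted p of 1.4e-08. By dose, DCB_14 gave 0.45, 0.47, 0.52 and 0.40 log2 units from 0.025 to 25 µM, and all 4 were called. DCP_25 gave 0.40, 0.49, 0.60 and 0.37 log2 units, of which those at 0.25 and 2.5 µM were called, with edgeR adjusted p of 0.16 and 0.35 at 0.025 and 25 µM. The level showed no slope on dose: -0.01 ± 0.03 log2 units per 10-fold step for DCB_14 and 0.00 ± 0.03 for DCP_25. At matched doses GNAS differed between the chemicals by 0.05, -0.02, -0.08 and 0.04 log2 units (DCB_14 minus DCP_25), with 95% intervals that together ran from -0.29 to 0.26. Within the first set alone the mean over doses was 0.35 log2 units above controls for each chemical, and within the second set 0.67 for DCB_14 and 0.68 for DCP_25. With the 7 shallow controls left out it was 0.35 and 0.36 log2 units, with edgeR adjusted p of 0.00081 and 0.0022. Without those controls the calls of GNAS at single doses were lost for DCB_14 at 0.025, 0.25 and 25 µM and for DCP_25 at 0.25 µM. Leaving out a replicate, here and below, took out every dosed library of that number on the plate, over all chemicals and doses. The GNAS calls of DCB_14 at 0.025 and 25 µM were also lost without any 1 of replicates 1 to 4. Its call at 0.25 µM was lost without replicate 1, 3 or 4. Without the set term those of DCB_14 at 0.025 and 25 µM were lost, and in thinned libraries and with DESeq2 that at 25 µM. Within the first set alone GNAS was called at single doses neither for DCB_14 at 0.025, 0.25 and 25 µM nor for DCP_25 at 0.25 and 2.5 µM.

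GNAS was also higher with the other chemicals of the plate. PCB153 libraries ran from 401 to 551 CPM, PCB187 from 367 to 556 CPM and Thiram from 354 to 566 CPM, and all 16 libraries of each lay above the control median. Against the same controls, GNAS was 0.43 log2 units higher with PCB153, 0.45 with PCB187 and 0.48 with the 3 lower doses of Thiram. Against the pooled libraries of both PCBs, the GNAS mean of DCB_14 differed by 0.02 log2 units (95% interval -0.07 to 0.11) and that of DCP_25 by 0.03. Whether the chemicals or a difference shared by all dosed wells of the plate raised GNAS was not tested. The GNAS locus overlaps the antisense gene GNAS-AS1 (chr20:58818919-58850903, minus strand), and whether counting used strand is not given in the sources used here. GNAS-AS1 summed to 236 counts over the controls, 254 over DCB_14 and 181 over DCP_25 libraries, against 59812, 119649 and 102946 counts of GNAS.

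All other genes that passed the test in the mean of DCB_14 were lower. FBXL16, an F-box protein, fell by 0.63 ± 0.12 log2 units (fold 0.648, edgeR adjusted p 0.0069). It also fell at 0.025 µM alone, by 0.95 ± 0.19 log2 units, with 21.8, 19.3, 15.6 and 19.3 CPM in replicates 1 to 4. First-set controls held 30.5 to 50.1 CPM of FBXL16 and second-set controls 14.8 to 44.9 CPM, so the second-set libraries overlapped their controls. The call of FBXL16 at 0.025 µM was lost without the dosed libraries of any 1 of the 4 replicate numbers, with edgeR adjusted p from 0.069 to 0.98. TSC22D4, a regulator of transcription from the TSC22 family, fell by 0.51 ± 0.10 log2 units (fold 0.7, edgeR adjusted p 0.0069). Its 16 DCB_14 libraries ran from 22.2 to 56.9 CPM, all below the control median. For TSC22D4, first-set controls ran from 62.6 to 94.8 CPM, above all DCB_14 libraries, and second-set controls from 24.1 to 51.6 CPM, within their range. C5orf38 fell by 0.59 ± 0.12 log2 units with an edgeR adjusted p of 0.0069. ING5, a subunit of histone acetyltransferase complexes, fell by 0.51 ± 0.11 log2 units with an edgeR adjusted p of 0.016. All 16 DCB_14 libraries were below the control median in C5orf38 and in ING5.

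PPDPF, named for pancreatic progenitor differentiation and proliferation, and GRINA, a membrane protein of the TMBIM family, completed the list. PPDPF fell by 0.41 ± 0.09 log2 units (fold 0.755, edgeR adjusted p 0.036), and GRINA by 0.35 ± 0.08 log2 units (edgeR adjusted p 0.036). With DCP_25 none of these 6 genes was called: the means were -0.17 log2 units for FBXL16, -0.20 for TSC22D4, -0.31 for C5orf38, -0.26 for ING5, 0.07 for PPDPF and -0.05 for GRINA. Within the second set alone, the DCB_14 means were -0.15 log2 units for FBXL16, 0.09 for TSC22D4, -0.11 for PPDPF, -0.10 for GRINA, -0.73 for C5orf38 and -0.48 for ING5, and none was called. Without replicate 1, TSC22D4, FBXL16, PPDPF, GRINA and ING5 were no longer called, and without replicate 3 C5orf38 was not. Without replicate 2, TSC22D4, FBXL16, PPDPF and GRINA were lost, and without replicate 4 ING5 was. Without control 49, TSC22D4, PPDPF, GRINA and ING5 were not called. In thinned libraries the same genes and FBXL16 were not. Within the first set alone ING5 and C5orf38 were not called. With DESeq2, PPDPF, GRINA and TSC22D4 were not called.

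At 25 µM, GSK3A, GRINA and LDB1 were called lower with DCB_14 than in controls. GSK3A encodes the alpha form of glycogen synthase kinase 3, which phosphorylates glycogen synthase and many other proteins. GSK3A stood at 27.6, 38.7, 19.3 and 43.9 CPM in replicates 1 to 4, against 47.6 to 81.8 CPM in first-set and 20.3 to 57.6 CPM in second-set controls. It fell by 0.84 ± 0.17 log2 units (fold 0.559, edgeR adjusted p 0.022). The libraries of replicates 1 and 2 lay below all first-set controls, and those of replicates 3 and 4 did not separate from second-set controls. LDB1, an adaptor of LIM-domain transcription complexes, stood at 20.9, 21.0, 13.7 and 18.9 CPM against 14.5 to 57.6 CPM in controls. LDB1 fell by 0.80 ± 0.18 log2 units (fold 0.573, edgeR adjusted p 0.046). GRINA stood at 282, 392, 149 and 242 CPM and fell by 0.59 ± 0.12 log2 units (edgeR adjusted p 0.029). THAP10, a THAP-domain protein, was higher by 1.32 ± 0.27 log2 units (fold 2.5, edgeR adjusted p 0.022), from 7.85, 10.9, 18.2 and 11.6 CPM against 1.18 to 10.96 CPM in controls. The sixth called gene was MRM2, a mitochondrial ribosomal RNA methyltransferase. MRM2 had counts in all 4 DCB_14 libraries at 25 µM, from 1.28 to 4.11 CPM, but 0 in 9 of 15 controls and in all 4 DCB_14 libraries at 0.25 µM. GSK3A and LDB1 had the smallest p-values of all genes in the DCB_14 trend, each at -0.28 ± 0.06 log2 units per 10-fold step of dose, with an edgeR adjusted p of 0.279. The calls of GSK3A and GRINA at 25 µM were lost without replicate 1 (edgeR adjusted p 0.18 and 0.32), without replicate 3 (0.26 and 0.14) or without control 49 (0.053 and 0.083). Those of LDB1 were lost without any 1 of the 4 replicates, those of THAP10 without replicate 2 or 3, and those of MRM2 without replicate 1, 3 or 4. DESeq2 called none of the 6 genes at 25 µM, with adjusted p of 0.25 for GSK3A, 0.19 for GRINA and 0.097 for LDB1 and GNAS, and the 2 genes it did call were others. Without the set term or in thinned libraries GSK3A, GRINA and LDB1 were not called either.

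Apart from GNAS, the mean of DCP_25 called LBH and LINC01273, both with few counts. LBH, a transcription cofactor known from limb bud and heart, ran from 0 through a median of 0.691 to 2.44 CPM in DCP_25 libraries and from 1.95 to 7.28 CPM in first-set controls. Only 3 of 7 second-set controls had any LBH count. It fell by 1.88 ± 0.37 log2 units (edgeR adjusted p 0.0087), and DCB_14 gave -1.45 ± 0.33 log2 units with an edgeR adjusted p of 0.061. LINC01273, a long non-coding RNA, had 67 counts in 7 of 16 DCP_25 libraries and 287 counts in 12 of 15 controls (edgeR adjusted p 0.041). LBH and LINC01273 were called by neither DESeq2 nor the fit without control 49.

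Between the chemicals at matched doses, 0 genes were called at 0.025, 0.25 and 2.5 µM (0% each) and 1 at 25 µM (0.00469%). In edgeR 775 (3.64%), 828 (3.89%) and 951 genes (4.46%) were under an unadjusted p of 0.05 at the 3 lower doses, and DESeq2 called 0 at each. The gene called at 25 µM was GSK3A. It stood at 63.1, 65.7, 92.1 and 67.6 CPM with DCP_25, above all 4 DCB_14 libraries, and the difference was -1.13 ± 0.20 log2 units. This is 2.19-fold lower with DCB_14, with a 95% interval of -1.52 to -0.74 log2 units, an edgeR adjusted p of 0.0012 and 0.00488 when adjusted over the 4 doses together. For GSK3A the differences at the lower doses were -0.05, -0.07 and -0.44 log2 units, with 95% intervals of -0.41 to 0.31, -0.43 to 0.30 and -0.81 to -0.07. Against controls, GSK3A with DCP_25 at 25 µM was 0.29 ± 0.15 log2 units higher, with an edgeR adjusted p of 0.98. This was -0.02 within the first set alone and 1.03 within the second, the latter with an edgeR adjusted p of 0.0045. The pair difference of GSK3A was -0.93 log2 units within the first set (edgeR adjusted p 0.15), -1.31 within the second (0.001) and -0.81 without replicate 3 (0.96).

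With the 4 doses averaged, the chemicals differed in 2 genes (0.00939%), PPDPF and AVEN, both lower with DCB_14. PPDPF ran from 124 through 183 to 202 CPM with DCB_14 and from 183 through 248 to 319 CPM with DCP_25. Its difference was -0.47 ± 0.08 log2 units (95% interval -0.64 to -0.31, edgeR adjusted p 0.0014), made of -0.29, -0.47, -0.45 and -0.69 log2 units at the 4 doses. The DCB_14 libraries of PPDPF lay below first-set controls (209 to 292 CPM) and overlapped second-set controls (167 to 201 CPM), while DCP_25 libraries overlapped both. AVEN, a caspase-activation inhibitor that blocks apoptosis, ran from 8.91 through 18.4 to 32.8 CPM with DCB_14 and from 19.9 through 30.6 to 48.9 CPM with DCP_25. Its difference was -0.60 ± 0.12 log2 units (95% interval -0.84 to -0.36, edgeR adjusted p 0.02). Against controls AVEN was called for neither chemical: the means were -0.31 ± 0.14 log2 units for DCB_14 and 0.29 ± 0.13 for DCP_25. Within the second set alone PPDPF gave -0.41 log2 units with an edgeR adjusted p of 0.11, and AVEN -0.68 with 0.11. Leaving out any replicate ended the AVEN call, with edgeR adjusted p from 0.077 to 0.39, and DESeq2 gave AVEN an adjusted p of 0.36. Without replicate 1, PPDPF gave -0.40 log2 units with an edgeR adjusted p of 0.12.

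**Figure D2:**
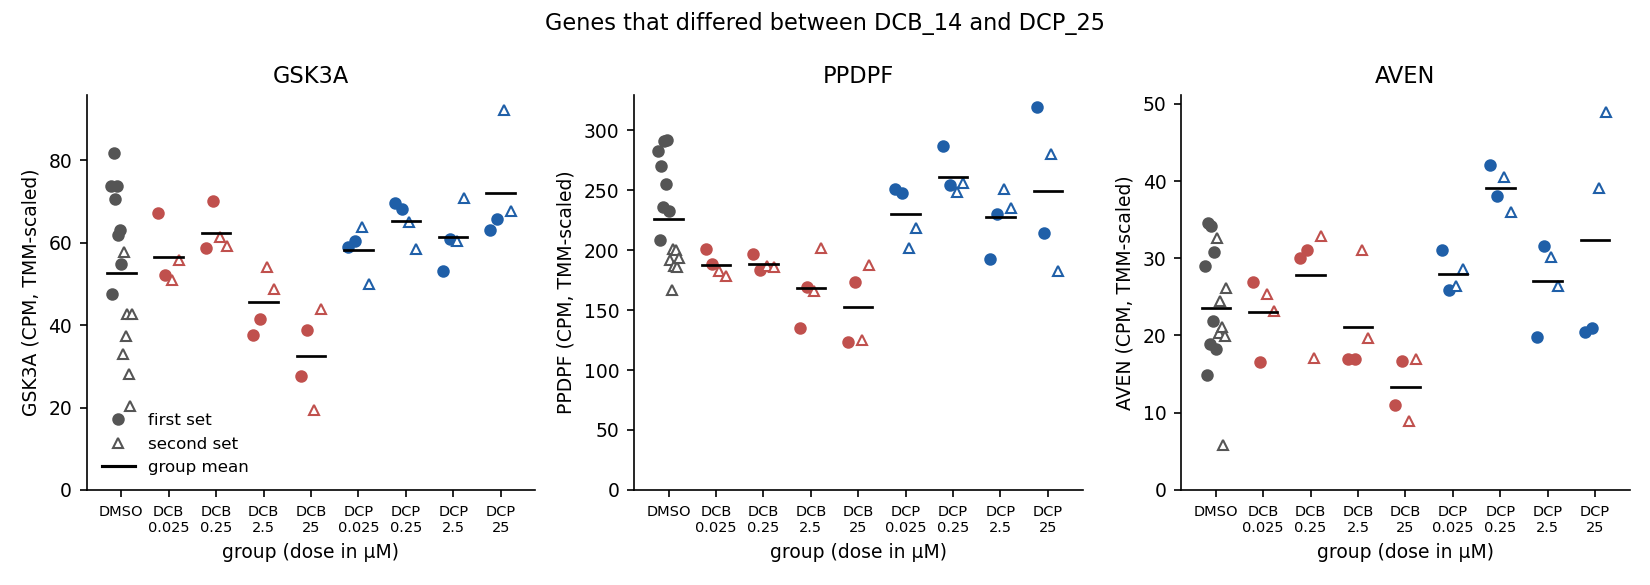
Level in CPM (vertical axes) of GSK3A, PPDPF and AVEN, the 3 genes called between the chemicals, in every control, DCB_14 and DCP_25 library by dose in µM, with circles for the first set, triangles for the second and bars at group means. At 25 µM the 4 DCB_14 libraries of GSK3A (19.3 to 43.9 CPM) lie below the 4 of DCP_25 (63.1 to 92.1 CPM).

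The difference between the compounds, which differ by the hydroxyl group, was bounded for the well-expressed genes. Among 7502 genes whose log2 CPM averaged 4 or more, the 95% interval of the difference lay within 1.5-fold of no difference for 84.9%, 80.0%, 82.3% and 78.4% at the 4 doses and for 99.6% in the mean over doses. Over all 21307 genes tested, the shares were 31.04%, 28.7%, 30.2% and 28.5% from the lowest to the highest dose and 47.8% in the mean. Genes without an interval counted as not bounded, so for most genes tested a difference of that size was not bounded.

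The genes called lower with DCB_14, against controls or DCP_25, lay above the median in GC content. All 9 genes called lower in any comparison whose log2 CPM averaged 4 or more had a transcript GC content above the median of 48.2%, and their median was 63.6%. They were AVEN, C5orf38, FBXL16, GRINA, GSK3A, ING5, LDB1, PPDPF and TSC22D4. Of the genes called higher, GNAS (58.9%) and MRM2 (50.8%) also lay above that median, and THAP10 lay below it. A GC content above the median was therefore not particular to the genes called lower. Across genes, which are not independent replicates, the log2 change of the DCB_14 mean had a Pearson correlation of -0.41 with GC content, and that of the DCP_25 mean -0.02. The slope of a library's expression on GC content averaged 0.087 ± 0.034 log2 CPM per 10 percentage points (SD, n = 8) in first-set controls and -0.072 ± 0.043 (n = 7) in second-set controls. It was 0.011 ± 0.040 and -0.049 ± 0.042 for DCB_14 and 0.053 ± 0.055 and 0.014 ± 0.030 for DCP_25 in the first and second set (n = 8 each). Adding that slope to the fit left 1 call in the DCB_14 mean, GNAS, and 0 between the chemicals. DCB_14 against DCP_25 then gave -0.82 log2 units for GSK3A at 25 µM and, in the mean over doses, -0.47 for AVEN and -0.23 for PPDPF. In the DCB_14 mean ING5 gave -0.47, C5orf38 -0.45, FBXL16 -0.41, TSC22D4 -0.29, PPDPF -0.20 and GRINA -0.18. The slope was computed from the expression values of the same libraries and differed between the groups. The added term can therefore take up part of any group difference, so the lost calls do not show their cause. The part of GC content in the calls was not tested further.

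**Figure D3:**
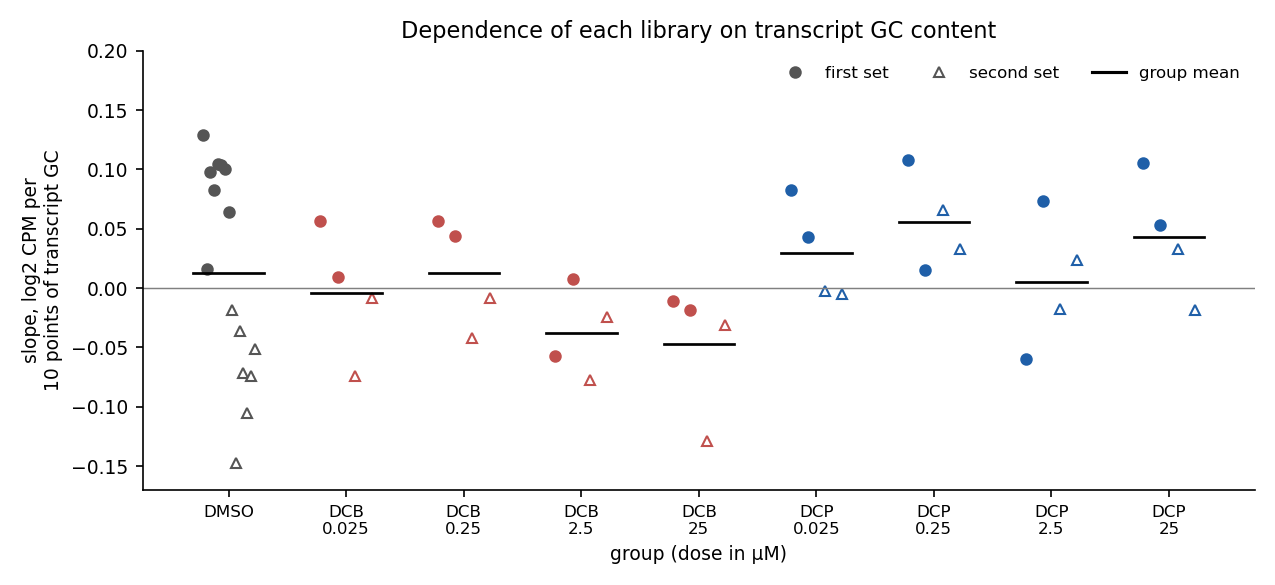
Slope of log2 CPM on transcript GC content per 10 percentage points (vertical axis) for each control, DCB_14 and DCP_25 library by dose in µM, with circles for the first set, triangles for the second and bars at group means. First-set controls average 0.087 and DCB_14 libraries of that set 0.011, while second-set controls average -0.072.

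A comparison with the PCB libraries of the plate was added after the data were seen. The DCB_14 mean called 0 genes against the pooled PCB153 and PCB187 libraries (0%), with 1045 genes under an unadjusted p of 0.05 in edgeR, and DESeq2 was not run on it. The DCP_25 mean called 123 (0.577%), 94 higher and 29 lower, and across genes its log2 difference had a Pearson correlation of 0.43 with GC content. Among the latter comparison's calls, GSK3A was 0.44 ± 0.08 log2 units higher with DCP_25 (edgeR adjusted p 0.0013), PPDPF 0.46 (7.6e-05), AVEN 0.43 ± 0.11 (0.025) and GRINA 0.31 ± 0.06 (0.0035). The DCB_14 means of GSK3A and GRINA were each 0.01 log2 units from the PCBs. At 25 µM alone, DCB_14 called 0 genes against the same pooled PCB libraries (0%), with 1236 under an unadjusted p of 0.05. The smallest edgeR adjusted p there was 0.115. DCP_25 at 25 µM called 2 (0.00939%), and DESeq2 was run on neither. PCB187 itself called 61 genes against the controls (0.286%), with PPDPF at -0.46, GRINA at -0.42, TSC22D4 at -0.63 and ING5 at -0.45 log2 units.

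None of the xenobiotic response genes chosen for their known roles passed the test with either chemical. CYP1A1, the classic AhR target, ran from 1.22 to 11.6 CPM with DCB_14 and 1.23 to 6.45 CPM with DCP_25, and from 1.67 to 6.24 and 4.55 to 20.8 CPM in first-set and second-set controls. The mean of CYP1A1 was -0.34 ± 0.25 log2 units for DCB_14 and -0.81 ± 0.27 for DCP_25, with edgeR adjusted p of 0.76 and 0.9. CYP1B1, an AhR-inducible P450 enzyme expressed in breast, was bounded tightly: -0.03 log2 units (95% interval -0.12 to 0.07) for DCB_14 and -0.00 (-0.10 to 0.10) for DCP_25. ALDH3A1, an aldehyde dehydrogenase induced through AhR, was lower rather than higher without passing the test. Its means were -0.47 ± 0.12 log2 units for DCB_14 (edgeR adjusted p 0.19) and -0.43 ± 0.12 for DCP_25 (0.85), and 11 of 16 DCB_14 and 7 of 16 DCP_25 libraries lay below every control. Over the AhR list 13 of 14 genes were tested, 0 were called, and the median was -0.11 log2 units for DCB_14 and -0.00 for DCP_25, beside -0.03 over all genes for both.

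No gene of oxidative defence was called. All 24 NRF2 targets were tested, 0 were called for either mean, 2 and 4 were lower at an unadjusted p under 0.05 and 0 higher, beside 8.09% and 5.21% of all genes in either direction, with medians of -0.05 and -0.04 log2 units. Examples are NQO1 at 0.05 ± 0.07 and -0.00 ± 0.07 log2 units for DCB_14 and DCP_25, GCLM at -0.05 and -0.13, and SLC7A11, the cystine transporter, at 0.04 and -0.02. The heme oxygenase gene HMOX1 had wider errors, -0.20 ± 0.29 and -0.14 ± 0.30 log2 units.

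Genes of the oxidation and conjugation steps described above were at the edge of detection or did not pass the test. CYP2E1 had 6 counts in 1 of 16 DCB_14 libraries and 0 in DCP_25 and control libraries, and CYP2B6 was at 0 in all 47. UGT1A6 was also at 0 counts in all 47, and SULT2B1 had 14 counts in 1 control. The phenol sulfotransferase SULT1A1 was measured in every group. With DCP_25 at 25 µM it stood at 7.09, 7.20, 8.27 and 8.82 CPM, against 11.3 to 20.3 CPM in first-set controls and 2.83 to 23.4 CPM in second-set controls. SULT1A1 was -0.79 ± 0.26 log2 units from controls at that dose, with an edgeR adjusted p of 0.87. Its mean over doses was -0.36 ± 0.16 log2 units for DCP_25 and -0.22 ± 0.15 for DCB_14. GSTP1, a glutathione transferase, stood at -0.05 (95% interval -0.13 to 0.04) and -0.00 (-0.09 to 0.08) log2 units.

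**Figure D4:**
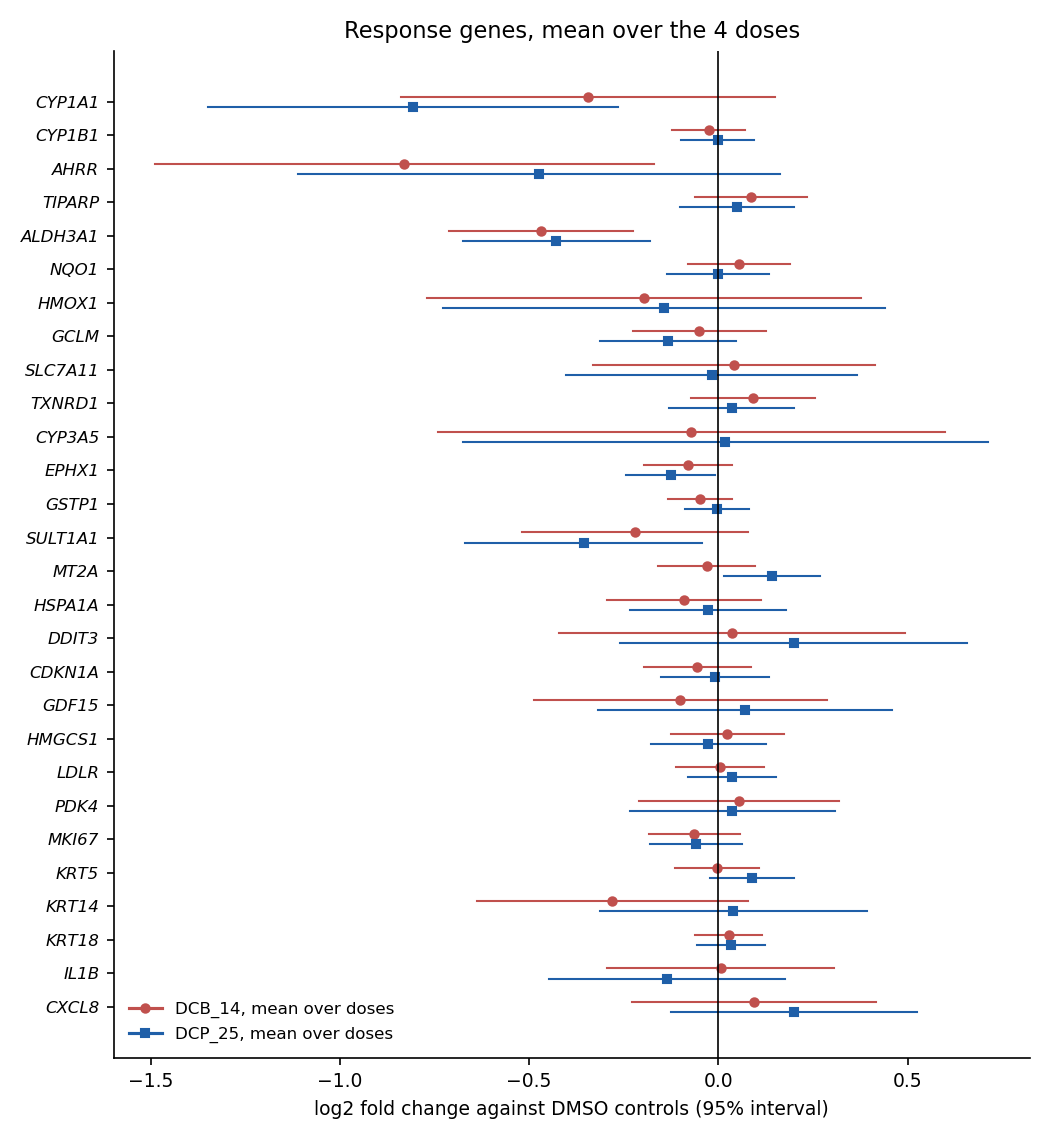
Log2 difference from the DMSO controls, averaged over the 4 doses, with 95% interval (horizontal axis), for response genes with enough counts to test, DCB_14 and DCP_25 side by side. None was called; CYP1B1 (-0.03 and -0.00) and GSTP1 (-0.05 and -0.00) have narrow intervals around 0, and CYP1A1 and AHRR wide ones.

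Over 22 gene lists, 350 of 418 genes were tested and 0 were called in any of 17 comparisons with edgeR. At an unadjusted p under 0.05, 52 of the 350 genes (14.9%) differed in the DCB_14 mean, 17 higher and 35 lower, against 8.09% of all genes. For the DCP_25 mean it was 20 (5.71%) against 5.21%, and between the means of the chemicals 41 (11.7%) against 7.12%. For the DCB_14 mean, 4 of 20 DNA replication genes and 2 of 20 mitotic genes were higher at that level and 0 lower; RRM2, a subunit of ribonucleotide reductase, stood at 0.17 ± 0.05 log2 units with an edgeR adjusted p of 0.22. Among 13 squamous differentiation genes, 3 were lower at that level with DCB_14 and 0 with DCP_25, with list medians of -0.48 and -0.24 log2 units. Among 27 genes of glycolysis and hypoxia, 4 were higher with DCB_14 and 0 with DCP_25.

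The 13 protein-coding genes of the mitochondrial genome accounted for 11 of the 35 lower ones. With DCB_14 their median was -0.03, -0.03, -0.16 and -0.18 log2 units at 0.025, 0.25, 2.5 and 25 µM, and 11, 12, 13 and 13 of the 13 were below 0. MT-ND5, a subunit of respiratory complex I, had the smallest adjusted p. It stood at 3900, 4109, 3318 and 3936 CPM with DCB_14 at 25 µM against 4017 to 4872 CPM in controls. Of those 4 libraries, 3 lay below every control. MT-ND5 differed from controls by -0.20 ± 0.05 log2 units at 25 µM (edgeR adjusted p 0.054) and -0.13 ± 0.03 in the mean (0.052), so 0 of the 13 genes were called. With DCP_25, 2, 4, 12 and 9 of the 13 were below 0 from 0.025 to 25 µM, with medians of 0.05, 0.02, -0.05 and -0.01 log2 units, and 7 of 13 in the mean, with a median of -0.00. In the direct comparison of the means all 13 were lower with DCB_14, with a median of -0.10 log2 units, 10 of them at an unadjusted p under 0.05, and the smallest adjusted p was 0.38 for MT-CO3. These transcripts share 1 genome, and their GC content of 39.6% to 47.7% lay below the median of all genes. Mitochondrial genes took 6.80% to 9.23% of counts in DCB_14, 7.36% to 9.69% in DCP_25 and 7.50% to 10.2% in control libraries, with higher shares in the second set of each group. On the same plate 11 of 13 were below 0 with PCB153 and 9 of 13 with PCB187 (medians -0.06 and -0.04 log2 units, 0 called), and Thiram at 25 µM called all 13 lower, with a median of -1.01 log2 units.

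**Figure D5:**
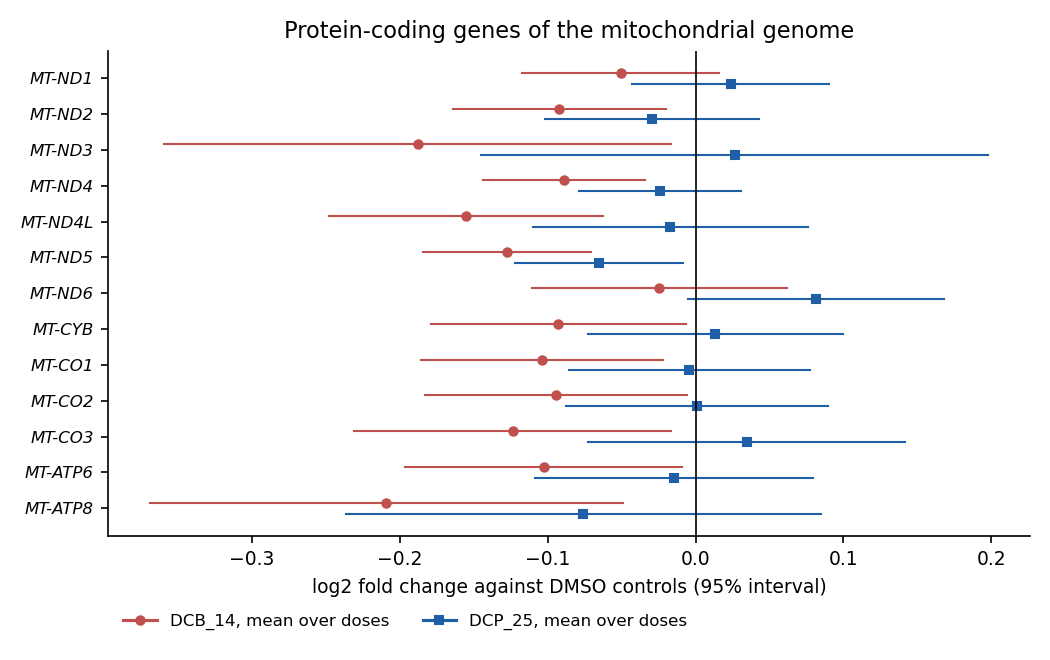
Log2 difference from the DMSO controls, averaged over the 4 doses, with 95% interval (horizontal axis) for the 13 mitochondrially encoded genes, DCB_14 and DCP_25 side by side. All 13 DCB_14 points lie below 0 and 7 of the 13 DCP_25 points do, and no gene was called.

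DCP_25 at 25 µM had no called gene, and the genes with the smallest p-values among its higher ones encode secreted and matrix proteins. TGFBI, an adhesion protein induced by TGF-beta, stood at 3332, 3349, 5877 and 5519 CPM against 3179 to 3663 in first-set and 3642 to 4567 CPM in second-set controls. Its replicates 3 and 4 lay above every control and its replicates 1 and 2 among them. This was not particular to DCP_25 at 25 µM. Over all doses, TGFBI lay above every control in 5 of 16 DCB_14 and 4 of 16 DCP_25 libraries. It lay above the control median in 8 of 16 of each. TGFBI was 0.26 ± 0.06 log2 units from controls with an edgeR adjusted p of 0.35. Fibronectin, FN1, gave 0.46 ± 0.12 and 0.33 ± 0.12 log2 units for DCP_25 and DCB_14. CCDC80, a secreted matrix protein, gave 0.61 ± 0.15 and 0.03 ± 0.16. On the lower side, DCP_25 at 25 µM gave -0.83 ± 0.23 log2 units for DSG3, a desmosomal cadherin, and -0.57 ± 0.14 for ECSIT, with edgeR adjusted p of 0.69 and 0.39.

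No inflammatory gene passed the adjusted test. With DCP_25 at 25 µM, 6 of 19 inflammatory genes were higher at an unadjusted p under 0.05 and 0 lower, against 4.74% of all genes in either direction, with a list median of 0.30 log2 units. DCB_14 at 25 µM had 0 in either direction, against 6.66% of all genes, with a median of 0.09. CCL20, a chemokine for dendritic cells and lymphocytes, stood at 89.0, 83.2, 131 and 107 CPM with DCP_25 at 25 µM and at 49.9, 69.7, 92.3 and 83.6 CPM with DCB_14, against 34.3 to 89.8 CPM in controls. Its difference from controls was 0.55 ± 0.18 log2 units for DCP_25 (edgeR adjusted p 0.84) and 0.09 ± 0.18 for DCB_14. CXCL8, the neutrophil chemokine, gave 0.50 ± 0.23 and 0.29 ± 0.23 log2 units, and IL1B 0.16 ± 0.22 and 0.11 ± 0.22. Between the chemicals at 25 µM, CCL20 differed by -0.46 log2 units (95% interval -0.89 to -0.03, edgeR adjusted p 0.82), which did not pass the test. With DCP_25 at 25 µM, 3 of 19 immediate early genes were higher at an unadjusted p under 0.05 and 0 lower, beside the same 4.74% of all genes, with EGR1 at 0.37 ± 0.18 log2 units among them.

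Run alone, the sets gave different genes. The DCB_14 mean called 123 of 22181 genes in the first set (0.555%; 12 higher and 111 lower) and 47 of 21993 in the second (0.214%; 33 higher and 14 lower). Of these, 6 genes were called in both, 4.88% and 12.8% of the lists, and 1 of the 6, GNAS, in the same direction. The other five were ATP5IF1, CXCL1, H4C3, MT2A and ROMO1. The DCP_25 mean called 2 genes in the first set (0.00902%) and 116 in the second (0.527%; 101 higher and 15 lower), with GNAS as the gene in both lists. In the DCB_14 first set 84 of 105 lower genes with a GC value lay above the median GC content, and in the DCP_25 second set 80 of 99 higher genes did. The part of depth and of GC content in these lists was not tested.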

How the data were processed

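RNA of MCF10A wells was sequenced by plexWell, a plate-based method that barcodes the cDNA of each well by tagmentation, per the labels' protocols. The deposited values are raw read counts per gene symbol, 34718 symbols in each library of the plate, made by the authors with STAR and featureCounts on GRCh38, per the submitters' processing notes, after FastQC and MultiQC. Annotation, strand handling and tool versions were not given in the sources used here. No molecular identifiers are mentioned, so counts are reads.

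The tests used edgeR (4.0.16, with limma 3.58.1 and R 4.3.3). Low genes were removed by filterByExpr with the groups given (count minimum 10, total minimum 15), and libraries were scaled by TMM and fitted with 1 mean per chemical and dose plus the set term, over all 95 libraries of the plate. The quasi-likelihood test took its common dispersion from the 5% most abundant genes, and p-values were adjusted by Benjamini-Hochberg per comparison, with a second adjustment over the 4 matched doses together. CPM used the TMM-scaled totals. SE and 95% intervals come from the same fit. Log2 differences between the chemicals are DCB_14 minus DCP_25. A library labelled with another plate but carrying the barcode of this one was left out.

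The members, gene lists and the rule for named genes were chosen with earlier results of these data known. The rule names every called gene where a comparison calls 20 or fewer, the 5 genes of smallest p in each direction (mean log2 CPM 4 or more) in the 25 µM and mean comparisons, and a panel of response genes. Of the genes of smallest p, those with values in the text are a part. The comparisons with the PCBs, with Thiram and between the sets, the GC term and the fit without the 7 shallow controls were added after the data were seen. DESeq2 1.42.0, RLE scaling and other alternatives are given in the closing section. Transcript GC content came from GENCODE v29 and was known for 7401 of 7502 genes (98.7%). Some genes that the rule names are not reported here.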

Additional observations from a re-analysis of the deposited data

Results flagged for a closer look

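In groups of 4 libraries, 1 library stood far from its 3 neighbours in 9 of 160 groups checked over 20 genes, and chance gives about 1 in 20. GSK3A in replicate 3 of DCP_25 at 25 µM stood at 92.1 CPM against 63.1 to 67.6 in the others. GRINA in replicate 2 of DCP_25 at 2.5 µM stood at 536 CPM against 305 to 342. MRM2 stood at 0.675 CPM in replicate 2 of DCB_14 at 2.5 µM (others 0 to 0.0913) and at 1.21 CPM in replicate 2 of DCP_25 at 2.5 µM (others 0 to 0.0574). FBXL16 stood at 40.4 CPM in replicate 3 of DCP_25 at 0.25 µM (others 30.1 to 31.8) and at 24.8 CPM in replicate 3 of DCP_25 at 2.5 µM (others 35.6 to 37.5). C5orf38 in replicate 3 of DCB_14 at 25 µM stood at 9.66 CPM against 22.4 to 23.3. LINC01273 in replicate 2 of DCB_14 at 0.025 µM stood at 0.469 CPM, with the others at 0. CYP1A1 in replicate 1 of DCP_25 at 0.025 µM stood at 6.16 CPM against 2.08 to 2.72.

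The chemicals differed from each other by edgeR's test in GSK3A at 25 µM (-1.13 log2 units, DCB_14 minus DCP_25) and, in the mean over doses, in AVEN (-0.60) and PPDPF (-0.47).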

How the results depend on the processing

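GNAS in the mean over doses was called in all 30 alternatives for each chemical, from 0.35 to 0.67 log2 units for DCB_14 and from 0.35 to 0.68 for DCP_25. TSC22D4 in the DCB_14 mean changed sign within the second set alone, at 0.0887 log2 units. Among values of panel genes under the alternatives, 110 moved by more than their replicate spread and 1730 did not. Counts of called genes follow, with the reported count first; what moved them was not tested beyond the settings named.

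For DCB_14 at 0.025 µM (2 genes), 0 were called without the set term, 8 without the low-count filter, 1 in libraries thinned to 2313090 counts, 8 in the second set alone, 1 with the GC term and 1 without the 7 shallow controls. At 0.25 µM (1) it was 4 without the filter, 0 and 5 in the first and second set, and 0 without shallow controls. At 2.5 µM (1) it was 2 with RLE scaling, 32 without the filter, 2 with DESeq2, 127 and 3 in the sets, and 65 without shallow controls. At 25 µM (6) it was 1 without the set term, 55 without the filter, 2 with DESeq2 (0 of them among the 6), 19 with both chemicals and controls alone, 0 thinned, 41 and 11 in the sets, 1 with the GC term and 43 without shallow controls. The mean (7) gave 12 with RLE, 42 without the filter, 17 with DESeq2, 20 with both chemicals and controls alone, 123 and 47 in the sets, 1 with the GC term and 78 without shallow controls. The trend (0) gave 13 without the filter and 5 in the first set.

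For DCP_25 at 0.025 µM (0) it was 1 without the filter, 1 thinned and 34 in the second set. At 0.25 µM (1) it was 0 and 20 in the sets and 0 without shallow controls. At 2.5 µM (1) it was 5 without the filter and 0 and 7 in the sets. At 25 µM (0) it was 20 without the filter, 5 with both chemicals and controls alone and 70 in the second set. The mean (3) gave 16 without the filter, 1 with DESeq2, 1 with both chemicals and controls alone, 7 thinned and 116 in the second set. The trend (0) gave 5 without the filter, 1 with both chemicals and controls alone and 11 in the second set.

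Between the chemicals at 2.5 µM (0), 8 were called without the filter. At 25 µM (1) it was 40 without the filter, 4 with both chemicals and controls alone, 5 and 2 in the sets and 0 with the GC term. The mean (2) gave 1 without the set term, 53 without the filter, 1 with DESeq2, 8 with both chemicals and controls alone, 1 thinned, 0 in the second set and 0 with the GC term.

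Replicates (all dosed libraries of a number on the plate) and single controls were left out in turn. This gave 0 to 2, 0 to 1, 1 to 3 and 0 to 10 genes for DCB_14 from 0.025 to 25 µM. Its mean gave 2 to 12. For DCB_14 at 25 µM it was 1, 3 and 0 without replicates 1, 2 and 3, 0 without control 49, 3 without control 52 or 57 and 10 without control 58. For its mean it was 2 and 4 without replicates 1 and 2, 3 without control 49 and 12 without control 58. DCP_25 gave 0 to 1, 1, 1 to 3 and 0 to 3 by dose and 1 to 4 for its mean, with 3 at 25 µM without replicate 2. Between the chemicals it was 0 to 1 at 2.5 µM, 0 to 5 at 25 µM and 0 to 2 in the mean.

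With a replicate block the counts were 2, 1, 1 and 9 for DCB_14 by dose, 8 for its mean, 0, 1, 1, 0 and 3 for DCP_25, and 0, 0, 0, 1 and 2 between the chemicals. Same-numbered libraries of the chemicals had correlations of 0.06 to 0.16 over 16 pairs, 10 of them over 0.1. Within a set they were -0.03 to 0.06, where the 2 libraries of a group mirror each other and give the same value. Of 32 libraries, 30 correlated best with their own number. That count cannot show pairing, which the design does not give. Deviations were taken from the group mean, which pushes libraries of 1 group apart and lowers their correlation with the other numbers.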
